A study of Drosophila melanogaster with 8 samples.

Results

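The glutathione S-transferase family of Drosophila was followed across 4 groups of whole embryos that differed in developmental stage and in forced expression of the transcription factor gene dimm. Members were the array probe sets that named 1 gene in the platform's annotation and whose gene symbol was Gst followed by the class letter D, E, O, S, T or Z and a number. This rule used no measured value and found 34 genes with 36 probe sets, of 13647 probe sets naming 1 gene and 18769 probe sets in all. The Delta class (D) had 11 probe sets, Epsilon (E) 14, Omega (O) 4, Theta (T) 4, Zeta (Z) 2 and Sigma (S) 1. GstE9 and GstO2 had 2 probe sets each. RefSeq lists 35 genes with such symbols, and GstE8 was the 1 without a member probe set.

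The elav-dimm embryos had the genotype w;UAS-dimm2A3/+;elav-GAL4/+, in which elav-GAL4, a driver active in neurons, switched on a myc-tagged dimm transgene from 1 inserted line. The control embryos, w;;elav-GAL4, came from the driver line itself and carried no dimm transgene. All groups carried w and elav-GAL4, but the control line differed from the cross in GAL4 dose and in the chromosomes of the other parent. These differences cannot be told apart from an effect of dimm, and "elav-dimm effect" below stands for all of them. The labels age the stage 14 embryos at 22 to 26 h, or from 24 h in the series text, and the stage 16 embryos at 28 to 32 h, with eggs collected at 18 °C. Each of the 4 groups had 2 Affymetrix Drosophila Genome 2.0 arrays, 8 in all. No label says that the 2 arrays of a group came from separate embryo collections, so each p-value reflects array-to-array spread that may be purely technical.

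Glutathione S-transferases couple the tripeptide glutathione to electrophilic compounds, including insecticides and the aldehydes that form when lipids are oxidised, so that these can be cleared. In flies the Delta and Epsilon classes have grown by tandem duplication, while Omega, Sigma, Theta and Zeta enzymes also occur in vertebrates. Transcription of GstD1 is a common readout of the oxidative stress factor CncC, the fly counterpart of Nrf2, which Keap1 holds in check.

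The values are log2 signals normalised by the GCRMA method. Between 7574 and 7651 probe sets lay above 4 on each array, and 38.5% to 41.2% sat at the lowest value, which was 2.18 on the stage 14 arrays and 2.19 on the stage 16 arrays. Because the arrays of a stage share that lowest value, the stages may have been normalised separately, and every stage 16 against stage 14 value below crosses that possible divide. dimm itself was at 2.86 and 2.80 in stage 14 control embryos and at 7.59 and 7.66 in stage 14 elav-dimm embryos. At stage 16 it was at 2.53 and 2.68 in control and at 5.51 and 8.26 in elav-dimm embryos, so it matched the labels (average effect 4.54 ± 0.59, limma adjusted p = 0.0386, n = 2 arrays a group). The median signal of 3′ over 5′ control probe sets, a sign of RNA or labelling quality, was 2.74 to 3.75 log2 units at stage 14. At stage 16 it was 5.49 and 5.51 on the replicate 1 arrays of the 2 genotypes and 3.25 and 3.33 on the replicate 2 arrays. In whole embryos, fewer cells of a type and less RNA per cell cannot be told apart.

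More of the family was above background at stage 16 than at stage 14. On both arrays of a group, 17 of the 36 probe sets (47.2%) lay above a signal of 4 in stage 14 control embryos and 18 (50%) in stage 14 elav-dimm embryos. In both stage 16 groups 22 of 36 (61.1%) did. Of all probe sets the share stayed between 39.9% and 40.3% in the 4 groups. The Omega class had 3 of 4 probe sets above 4 and Sigma 1 of 1 in every group. Theta went from 3 of 4 at stage 14 to 4 of 4 at stage 16, in both genotypes, and Epsilon from 7 to 9 of 14. The Delta class had 3 of 11 in stage 14 control, 4 in stage 14 elav-dimm and 5 in both stage 16 groups. No Zeta probe set passed 4 on any array.

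The test took probe sets with a signal above 4 on 2 or more of the 8 arrays, which kept 23 GST probe sets for 22 genes. The other 13 probe sets, for 12 genes, were too dim: GstD4, GstD6, GstD7, GstD8, GstD11, GstE2, GstE4, GstE9 (both probe sets), GstE14, GstO1, GstZ1 and GstZ2. Of these 13, 8 lay within 0.1 of the lowest value on every array. GstE14 acts in the synthesis of the moulting hormone ecdysone, and the Zeta enzymes are the class of maleylacetoacetate isomerase in tyrosine breakdown. The brightest of the untested was GstE2, between 3.50 and 3.64 at stage 16 and at 2.23 to 2.24 at stage 14. GstD7 lay between 2.66 and 2.72 at stage 14 and no higher than 2.24 at stage 16.

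Of the 23 tested probe sets, 17 lay above 4 on all 8 arrays. The other 6 passed only through the groups where they were bright, so a difference between groups was built into their inclusion. GstD2, GstD10 and GstE10 passed through stage 16. GstE5 passed through stage 16 and 1 stage 14 elav-dimm array, GstT2 through stage 16 and 1 stage 14 control array, and GstD5 through the stage 14 elav-dimm arrays alone.

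**Figure D1:**
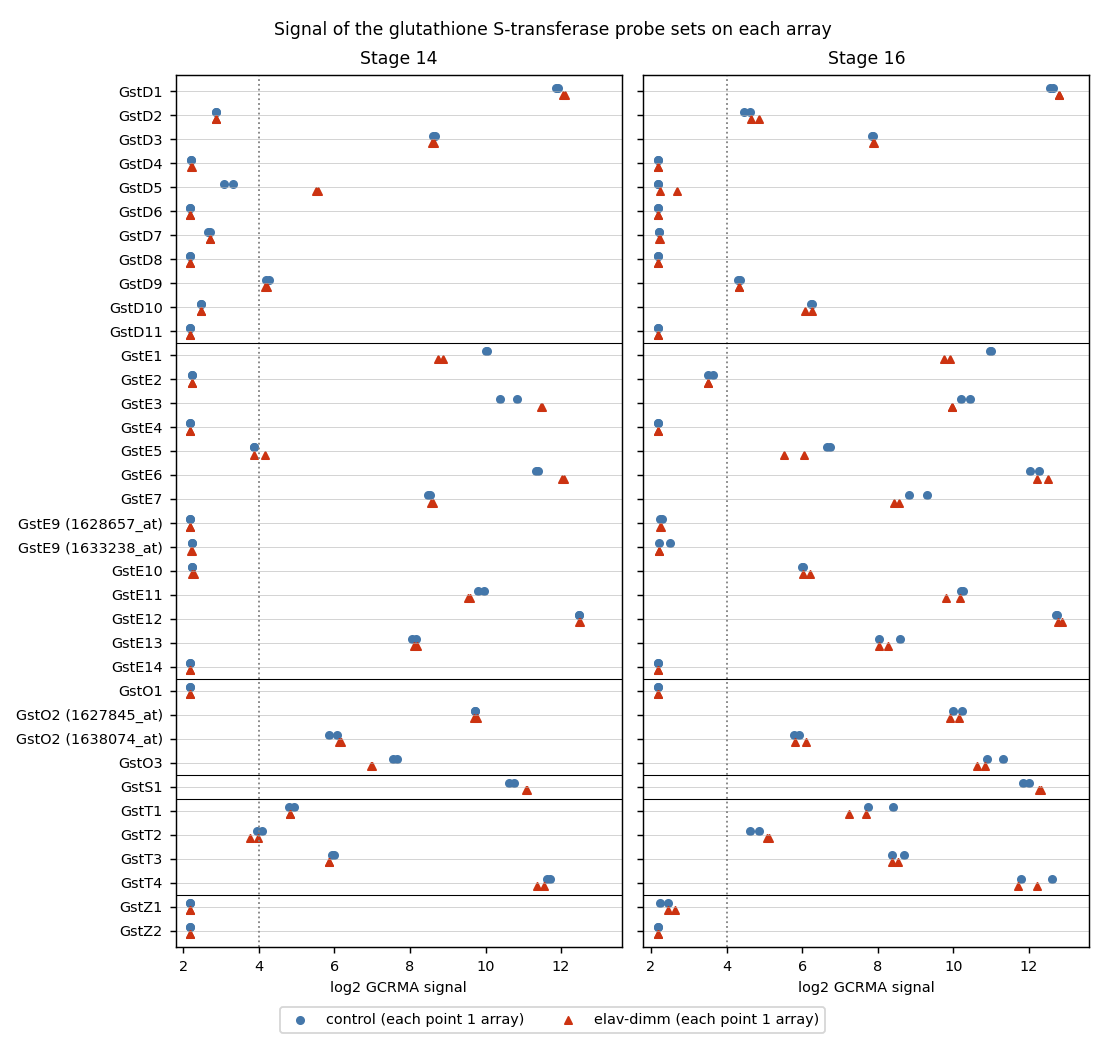
Log2 GCRMA signal (x axis) of each of the 36 GST probe sets (y axis, by class) at stage 14 and stage 16, with 1 point per array, coloured by genotype, and a dotted line at the signal of 4 used as the filter. GstE1 lies lower in elav-dimm than in control embryos at both stages, GstD5 stands above 4 in the stage 14 elav-dimm arrays only, and GstO3, GstT1 and GstT3 lie further right at stage 16.

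Few members passed the test for the elav-dimm effect. Averaged over the stages, limma called 1 of 23 GST probe sets higher, GstD5, where 0.969% of all 8258 tested probe sets were called higher. It called 1 lower, GstE1, where 0.533% of all were called lower, and either direction made up 1.5% of all. At stage 14 the same 2 genes were called (0.339% of all probe sets), and at stage 16 GstE1 was called (0.363%). GstD5 passed the filter through the stage 14 elav-dimm arrays alone, so the direction of its calls was fixed by its inclusion. Of the 17 members above 4 on all arrays, 0 were called higher and 1 lower on average, beside 57 and 41 of all 6859 such probe sets. The median effect over the 23 probe sets was -0.02 log2 units, beside 0.00 over all tested probe sets. By class the median average effect was 0.05 for 6 Delta, -0.06 for 9 Epsilon, -0.03 for 3 Omega and -0.16 for 4 Theta probe sets, and 0.38 for the 1 Sigma probe set.

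GstE1, an Epsilon enzyme known to conjugate the lipid peroxidation product 4-hydroxynonenal, fell in elav-dimm embryos. At stage 14 its signal was 10.03 and 10.01 on the control arrays and 8.74 and 8.87 on the elav-dimm arrays. At stage 16 it was 10.99 and 10.96 in control and 9.74 and 9.90 in elav-dimm embryos. The gap between genotypes exceeded the spread between arrays at both stages, with no overlap. The average effect was -1.18 ± 0.07 (SE; limma adjusted p = 0.0059), a level 0.440 times that of control.

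The size of the GstE1 effect was alike at the stages, -1.21 ± 0.09 at stage 14 (adjusted p = 0.0189) and -1.15 ± 0.09 at stage 16 (adjusted p = 0.0373), and the difference between them was 0.06 ± 0.13. Leaving out 1 array at a time kept the average effect between -1.22 and -1.14, but the adjusted p missed the threshold without stage 14 control replicate 1 (0.0825) or replicate 2 (0.0717). The stage 14 call held in 2 of the 8 such fits, those without a stage 16 elav-dimm array. The stage 16 call held in 0 of the 8 (adjusted p from 0.0681 to 0.187), while the effect stayed between -1.23 and -1.07.

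GstD5, a Delta enzyme gene, had a higher signal in stage 14 elav-dimm than in stage 14 control embryos. Its signal was 3.08 and 3.31 on the stage 14 control arrays and 5.56 and 5.51 on the stage 14 elav-dimm arrays. At stage 16 it was 2.19 on both control arrays and 2.24 and 2.68 on the elav-dimm arrays. Only the stage 14 elav-dimm arrays stood clear of the dim range.

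The GstD5 effect was 2.34 ± 0.17 at stage 14 (adjusted p = 0.016), 1.31 ± 0.12 on average (adjusted p = 0.0179) and 0.27 ± 0.17 at stage 16 (adjusted p = 0.834). Because the filter admitted GstD5 through the stage 14 elav-dimm arrays alone, the stage 14 and average p-values are no independent test of a rise. The size rests on dim control signals, and with signals below 4 raised to 4 the stage 14 effect was 1.53. The difference between the stages was -2.07 ± 0.24 and was not called (adjusted p = 0.34). With signals raised to 4 it was called at -1.53 (adjusted p = 0.019). Every array outside stage 14 elav-dimm was then at 4, without spread. That value is the stage 14 effect with its sign reversed, so its p-value cannot test a difference between stages. No GST probe set was called for that difference otherwise, and 0.0121% of all probe sets were in the main fit, so a stage-specific effect on GstD5 was not established. Leaving out any 1 of the stage 14 arrays or stage 16 control arrays ended both the average call (adjusted p from 0.0536 to 0.131) and the stage 14 call (0.0579 to 0.239). The 2 fits without a stage 16 elav-dimm array kept both.

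**Figure D2:**
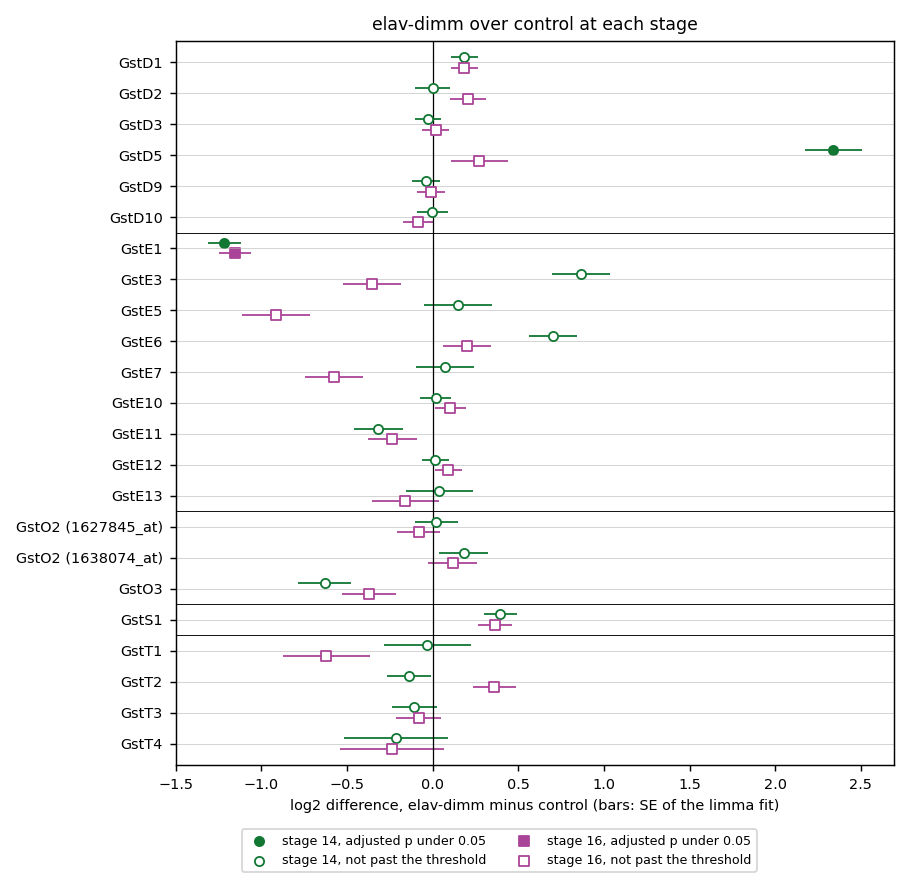
Log2 difference of elav-dimm minus control (x axis) for the 23 tested GST probe sets (y axis) at stage 14 and stage 16, with points for the fitted effect and bars for its standard error (n = 2 arrays a group). GstE1 lies near -1.2 at both stages, GstD5 stands at 2.34 at stage 14, and most other probe sets lie near 0.

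A further group of members had effects of moderate size that missed the threshold. GstE6, an Epsilon gene, was at 11.33 and 11.38 in stage 14 control and 12.08 and 12.03 in stage 14 elav-dimm embryos. The stage 16 signals were 12.03 and 12.28 in control and 12.21 and 12.51 in elav-dimm embryos. Its arrays were separate at stage 14 and overlapped at stage 16, with an average effect of 0.45 ± 0.10 (adjusted p = 0.124).

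GstS1, the Sigma enzyme, is abundant in flight muscle and also conjugates 4-hydroxynonenal. Its signal was 10.63 and 10.75 in control and 11.08 and 11.09 in elav-dimm embryos at stage 14. The stage 16 signals were 12.01 and 11.84 in control and 12.26 and 12.32 in elav-dimm embryos. The elav-dimm arrays were the higher ones at both stages, by 0.38 ± 0.07 on average (adjusted p = 0.0867).

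GstO3, an Omega gene, lay on the other side. It was at 7.56 and 7.66 in stage 14 control and 6.98 on both stage 14 elav-dimm arrays, and at 11.31 and 10.90 in stage 16 control and 10.83 and 10.63 in stage 16 elav-dimm embryos. The elav-dimm arrays were the lower ones at both stages, with an average effect of -0.50 ± 0.11 (adjusted p = 0.13).

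The same-numbered stage 16 arrays of the 2 genotypes moved together, as their 3′ to 5′ values also did, and this spread entered the tests above. Of the 23 GST probe sets, 17 differed between replicate 1 and 2 in the same direction in both genotypes at stage 16, and 8 did at stage 14. With the replicate number within each stage as a block, 5 GST probe sets were called on average, where 7.74% of all probe sets were: GstD5, GstE6 (adjusted p = 0.0226) and GstS1 (0.046) were higher, and GstE1 and GstO3 (0.027) were lower. At stage 14 the block gave GstD5, GstE1 and GstE6 (0.0394; 1.9% of all), and at stage 16 GstE1 (2.65% of all). Leaving out both replicate 1 arrays of stage 16 in place of the block left 1 array in each stage 16 group. The average effects were then 0.47 for GstE6, 0.44 for GstS1 and -0.45 for GstO3.

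Counting only whether the arrays of the genotypes overlapped, 7 of 23 GST probe sets were separate in the same direction at both stages, where 12% of all tested probe sets were. GstD1, GstD5, GstE10 and GstS1 were on the higher side in elav-dimm embryos, and GstE1, GstE11 and GstO3 on the lower side. For 2 of the 7 this reads values in the dim range: GstE10 was at 2.24 on both control arrays and at 2.24 and 2.28 on the elav-dimm arrays at stage 14, and GstD5 was below 4 on all stage 16 arrays. GstD1, which takes part in the metabolism of DDT, was at 11.93 and 11.87 in stage 14 control and 12.06 and 12.10 in stage 14 elav-dimm embryos. Among stage 16 arrays it was at 12.65 and 12.56 against 12.79 on both elav-dimm arrays, and its average effect of 0.19 ± 0.06 was not called (adjusted p = 0.257).

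In 3 of 23 members, all Epsilon genes, the elav-dimm arrays were the higher ones at stage 14 and the lower ones at stage 16. Of all tested probe sets, 1.71% were separate in opposite directions at the 2 stages, a share that pools both orders. GstE3 was at 10.39 and 10.82 in control and 11.49 and 11.46 in elav-dimm embryos at stage 14, and at 10.45 and 10.20 against 9.98 and 9.96 at stage 16. Its effect was 0.87 ± 0.17 at stage 14 (adjusted p = 0.179) and -0.35 ± 0.17 at stage 16 (adjusted p = 0.74), and the difference between stages was -1.22 ± 0.24 (adjusted p = 1). GstE5 was at 3.87 on both control arrays and 3.87 and 4.17 on the elav-dimm arrays at stage 14, so the gap there was in the dim range.

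At stage 16 GstE5 was at 6.73 and 6.66 in control and 6.05 and 5.51 in elav-dimm embryos, an effect of -0.92 ± 0.20 (adjusted p = 0.206). GstE7 was at 8.49 and 8.53 against 8.56 and 8.61 at stage 14 and at 9.32 and 8.83 against 8.56 and 8.43 at stage 16, where its effect was -0.58 ± 0.17 (adjusted p = 0.379). None of the 3 reached the threshold at either stage or for the difference, although GstE3 did at stage 14 when arrays were weighted by quality (adjusted p = 0.0263).

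The Epsilon and Delta genes lie in 2 tandem runs, and the effect differed between neighbours within each. In RefSeq's gene order GstE10, GstE1, GstE2, GstE3, GstE4, GstE5, GstE6, GstE7, GstE8 and GstE9 form a run of 10 adjacent genes on chromosome arm 2R. GstD10, GstD9, GstD1, GstD2, GstD3, GstD4, GstD5, GstD6, GstD7 and GstD8 form a run of 10 on 3R. On 2R GstE1 fell at both stages, while its neighbour GstE10 had an average effect of 0.06 ± 0.06 (adjusted p = 0.906) and GstE3, with the dim GstE2 between them, had 0.26 ± 0.12 (adjusted p = 0.518).

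On 3R GstD5 rose at stage 14 between GstD4 and GstD6, which were both within 0.1 of the lowest value on every array, and GstD3 had a stage 14 effect of -0.02 ± 0.08 (adjusted p = 1). The transgene is written in the second-chromosome position of the genotype, and elav-GAL4, in the third position, had 1 copy in the cross, so the chromosomes of both the Epsilon and the Delta run differed between the groups. The 2 genotypes may also differ in alleles there, which can change probe binding, and this cannot be told apart from transcript level. Genes of a run are close relatives, and how far a probe set also binds its neighbours' transcripts was not tested.

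**Figure D3:**
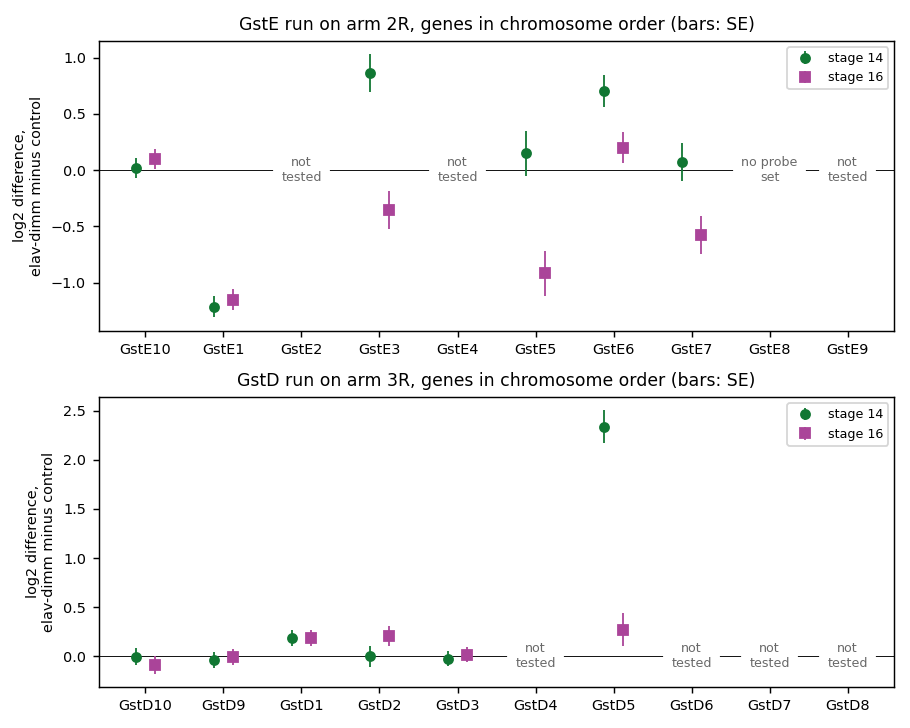
Log2 difference of elav-dimm minus control (y axis, bars for the standard error) for the genes of the Epsilon run on 2R and the Delta run on 3R, in chromosome order along the x axis, at stage 14 and stage 16. GstE1 in the first run (-1.21 and -1.15) and GstD5 in the second (2.34 at stage 14) stand apart from the tested genes beside them.

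Development from stage 14 to stage 16 moved more of the family than the genotype did, mostly upward. In control embryos 15 of 23 GST probe sets rose (21.8% of all tested probe sets did), 2 fell (39% of all) and 6 were not called. In elav-dimm embryos 13 rose (20.7% of all), 3 fell (42.8% of all) and 7 were not called. These counts include the 6 members that passed the filter through some groups only. Of the 17 members above 4 on all arrays, 10 rose and 1 fell in control embryos, beside 17.1% and 38.3% of the 6859 probe sets of that kind. In elav-dimm embryos 8 of the 17 rose and 2 fell, beside 16.2% and 42.6%.

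The median change of those 17 was 0.53 in control and 0.34 in elav-dimm embryos, while the median of all 6859 was -0.38 and -0.44. Changes are thus to be read against bright probe sets whose median shifted down. Over all 18769 probe sets, which include the dim ones, the median change was 0.00 in each genotype. Centring each array on its median moved the median of all tested probe sets from -0.38 to -0.16 in control and from -0.44 to -0.13 in elav-dimm embryos, and the share of calls that were higher from 35.8% to 46.8% and from 32.7% to 47.6%. It reversed none of the named GST changes.

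In the Theta class 3 genes lay above 4 on all arrays, and 2 of these, GstT1 and GstT3, rose in each genotype, where 17.1% and 16.2% of all such probe sets rose. GstT1 was at 4.92 and 4.79 in stage 14 control and 8.40 and 7.74 in stage 16 control embryos, a rise of 3.22 ± 0.26 (adjusted p = 0.000198; 9.30-fold). In elav-dimm embryos it went from 4.84 and 4.82 to 7.68 and 7.23, a rise of 6.18-fold. Its stage 16 arrays lay far above the stage 14 arrays in both genotypes, and the stage 16 elav-dimm arrays lay below the stage 16 control arrays without passing the test (-0.62 ± 0.26, adjusted p = 0.648).

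GstT3 rose from 5.99 and 5.94 to 8.69 and 8.38 in control embryos, by 2.57 ± 0.13 (adjusted p = 3.7e-05; 5.95-fold). In elav-dimm embryos it rose from 5.86 on both arrays to 8.55 and 8.37 (6.06-fold). The genotypes were alike to within 0.2 of a log2 unit at each stage. GstT2, next to GstT1 on 2R, rose from 4.08 and 3.95 to 4.61 and 4.86 in control embryos (0.72 ± 0.13) and from 3.78 and 3.98 to 5.08 and 5.11 in elav-dimm embryos (1.22). It passed the filter through stage 16 and 1 stage 14 control array, so a rise with age was built into its inclusion.

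GstT4, described here after its values were seen, was bright throughout, at 11.36 to 11.71 at stage 14, and split by replicate at stage 16, with 11.79 and 12.60 in control and 11.71 and 12.21 in elav-dimm embryos. The lower array of each pair was replicate 1, whose 3′ to 5′ value was the higher. The change of 0.53 ± 0.30 in control embryos was not called (adjusted p = 0.176). It was called with the replicate block (adjusted p = 0.00841) and, at 0.93, without both replicate 1 arrays of stage 16 (adjusted p = 0.00762), and also without the replicate 1 array of stage 16 control alone (0.0278). Without the replicate 2 array of stage 16 control the change was 0.13 (adjusted p = 0.656), so the value rests on which stage 16 array is used.

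Among the Omega genes GstO3 rose most. It went from 7.56 and 7.66 to 11.31 and 10.90 in control embryos, by 3.49 ± 0.16 (adjusted p = 2.36e-05; 11.3-fold), and from 6.98 on both arrays to 10.83 and 10.63 in elav-dimm embryos, a rise of 3.75. The rise was far larger than any difference between its replicates or genotypes. On 3L, 1 gene lies between GstO3 and GstO2, and the 2 GstO2 probe sets did not move alike.

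One of the GstO2 probe sets was at 9.71 on both stage 14 control arrays and at 10.23 and 10.00 at stage 16, a rise of 0.41 (adjusted p = 0.0361). The other was at 5.85 and 6.08 and then at 5.91 and 5.78, a change of -0.12 that was not called. The mean of the 2 probe sets changed by 0.14 (adjusted p = 0.372), so the call holds for 1 probe set and not for the gene. It was also lost without either control or either elav-dimm array of stage 14, or without replicate 1 of the stage 16 control (adjusted p from 0.0682 to 0.131). GstO1, on the other side of GstO2, was at the lowest value.

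GstS1 rose from 10.63 and 10.75 at stage 14 to 12.01 and 11.84 at stage 16 in control embryos, by 1.24 ± 0.10 (adjusted p = 0.000196; 2.36-fold). In elav-dimm embryos the rise was 1.21 (2.31-fold). The stage 16 arrays lay above all stage 14 arrays in both genotypes.

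Of the 7 Epsilon genes above 4 on all arrays, 4 rose and 0 fell in control embryos (median change 0.35), beside 17.1% and 38.3% of all such probe sets. In elav-dimm embryos 3 rose and 1 fell (median 0.30), beside 16.2% and 42.6%. GstE5 and GstE10, which passed the filter through their stage 16 signals, were called higher as well, a direction fixed by how they were included. GstE10 was at 2.24 on both control arrays at stage 14 and at 6.02 and 6.01 at stage 16, and in elav-dimm embryos it was at 2.24 and 2.28 and then at 6.20 and 6.02. It went from background to a clear signal in both genotypes, and with signals below 4 raised to 4 the rises were 2.01 and 2.11. GstE5 went from the dim stage 14 values above to 6.73 and 6.66 in control embryos (2.82 ± 0.20) and to 6.05 and 5.51 in elav-dimm embryos (1.76), or by 2.69 and 1.69 with signals raised to 4.

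GstE1 rose with age in both genotypes, by 0.96 ± 0.09 in control (adjusted p = 0.000469) and by 1.02 in elav-dimm embryos, so that its level in stage 16 elav-dimm embryos came close to that of stage 14 control embryos. GstE6 rose in control embryos by 0.80 ± 0.14 (adjusted p = 0.0044), while its change in elav-dimm embryos, 0.30, was not called (adjusted p = 0.11). It was called with the replicate block (adjusted p = 0.013) and without replicate 1 of stage 16 elav-dimm (0.0458). GstE3 fell in elav-dimm embryos (-1.50 ± 0.17, adjusted p = 0.000721), and had a change of -0.28 in control embryos (adjusted p = 0.194). That difference is the same contrast as the stage difference of the elav-dimm effect above, which was not called.

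Several small Epsilon changes lay near the threshold. GstE12, bright at 12.46 to 12.88 on every array, was called higher at 0.27 in control (adjusted p = 0.0318) and 0.34 in elav-dimm embryos (0.0128). The control call was lost without any 1 of the stage 14 arrays or stage 16 control arrays (adjusted p from 0.0537 to 0.132) while the change stayed between 0.26 and 0.27, and the elav-dimm call without either stage 14 elav-dimm array (0.0643 and 0.0526). GstE7 rose by 0.56 ± 0.17 in control embryos (adjusted p = 0.032), a call lost without any 1 of the stage 14 arrays (0.0641 to 0.129), where the change stayed between 0.54 and 0.58. The size turned on the stage 16 control arrays: it was 0.32 without replicate 1 (0.0464) and 0.80 without replicate 2 (0.00283). GstE7 changed by -0.09 in elav-dimm embryos (adjusted p = 0.67).

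GstE11 was called in elav-dimm embryos (0.43, adjusted p = 0.0415), a call kept by 1 of the 8 fits that left out an array, that without replicate 2 of stage 16 elav-dimm, with adjusted p from 0.0565 to 0.155 in the others. The change was 0.61 without that array and 0.25 without replicate 1 of the same group. In control embryos its change of 0.35 was not called (adjusted p = 0.0798), but it was with the replicate block (0.0417) and without either stage 16 elav-dimm array (0.0278). GstE13, at 8.03 to 8.58 on all arrays, changed by 0.21 and 0.01 and was not called in either genotype.

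Of the 3 Delta genes above 4 on all arrays, GstD1 rose, GstD3 fell and GstD9 was not called, in both genotypes. The directions of GstD2, GstD5 and GstD10, described after them, were fixed by the groups through which they passed the filter. GstD1 rose by 0.71 ± 0.08 in control embryos (adjusted p = 0.000785) and by 0.71 in elav-dimm embryos. GstD3, which lies 2 genes from GstD1 in the 3R run, fell from 8.67 and 8.61 to 7.86 and 7.88 in control embryos, a change of -0.77 ± 0.08 (adjusted p = 0.00048), with -0.73 in elav-dimm embryos. The stages did not overlap in either genotype for either gene. GstD9 stayed between 4.18 and 4.37 on all 8 arrays.

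GstD10 and GstD2 rose from the dim range. GstD10 was at 2.46 on all 4 stage 14 arrays and at 6.27 and 6.24 in control and 6.08 and 6.26 in elav-dimm embryos at stage 16. GstD2 was at 2.86 on all 4 stage 14 arrays, and at 4.62 and 4.46 in control and 4.85 and 4.65 in elav-dimm embryos at stage 16. Values equal to within 0.002 on 4 arrays carry no array noise, and with signals below 4 raised to 4 the rises were 2.25 and 2.17 for GstD10 and 0.54 and 0.75 for GstD2, in control and elav-dimm embryos.

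GstD5 fell in elav-dimm embryos (-3.08 ± 0.17, adjusted p = 4.28e-05; -1.53 with signals raised to 4). Its called change of -1.01 in control embryos lies wholly below a signal of 4 and was 0 with signals raised to 4, so it is not read as a change. Of the Delta members called lower with age in control embryos, GstD3 was the 1 with signals above 4.

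**Figure D4:**
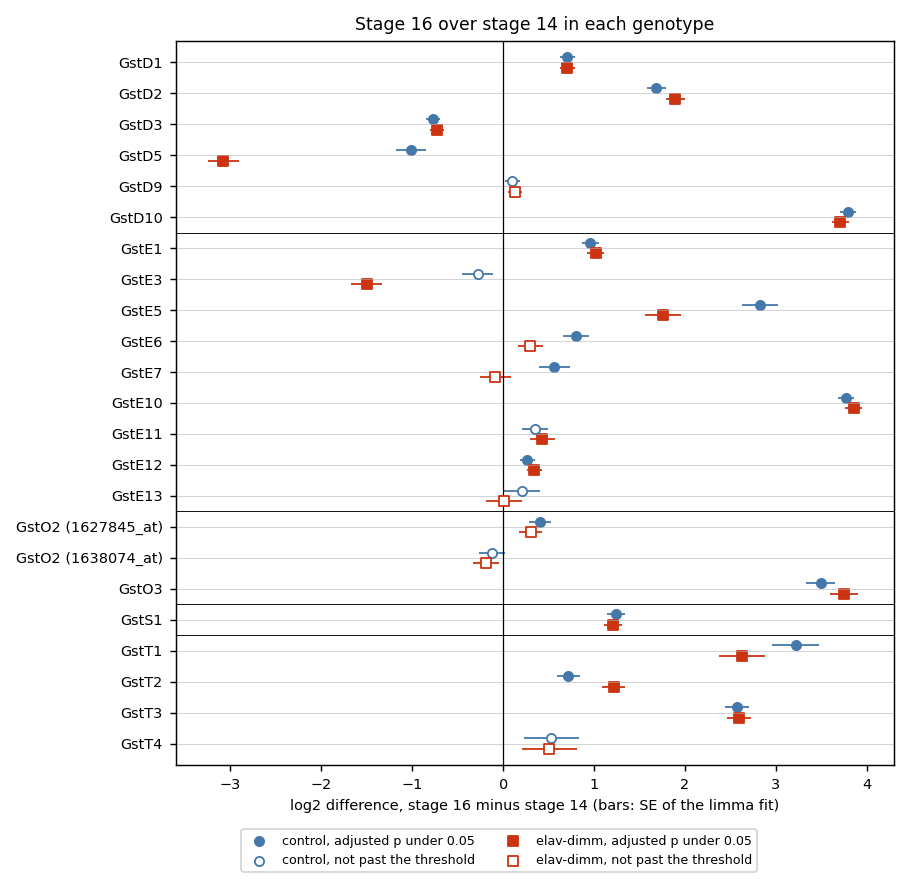
Log2 change from stage 14 to stage 16 (x axis) of the 23 tested GST probe sets (y axis) in control and in elav-dimm embryos, with points for the fitted change and bars for its standard error (n = 2 arrays a group). GstD10, GstE10, GstO3, GstT1 and GstT3 lie beyond 2.5 in both genotypes, and GstD3 lies to the left of 0 in both.

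Other genes of glutathione metabolism were not called for the elav-dimm effect. None of 5 tested genes of glutathione synthesis and breakdown, 3 tested relatives outside the symbol rule, 8 tested redox partners and 8 tested regulators of the detoxification response passed on average or at either stage. Their median average effects were 0.05, -0.31, 0.06 and -0.03, beside 0.00 for all tested probe sets. With the replicate block 2 of these genes, named here after their values were seen, were called higher on average: MRP, a pump that exports glutathione conjugates (0.53 ± 0.23; adjusted p = 0.481, and 0.0263 with the block), and the thioredoxin gene Trx2 (0.38 ± 0.08; 0.123 and 0.0282).

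With age the counts were mixed. In control embryos 1 of 5 genes of glutathione synthesis and breakdown rose and 1 fell, 1 of 3 relatives rose, 3 of 8 redox partners rose and 0 fell, and 1 of 8 regulators rose and 2 fell, beside 21.8% higher and 39% lower over all tested probe sets. Gclc, the catalytic subunit of the enzyme that limits glutathione synthesis, fell (-0.63 in control, adjusted p = 0.00606, and -0.83 in elav-dimm embryos). Its partner subunit gene Gclm rose in elav-dimm embryos (0.65, adjusted p = 0.0369) and had a change of 0.55 in control embryos (0.0636), and Ggt-1, of glutathione breakdown, rose in both genotypes (0.89 and 0.81). Mgstl, the microsomal glutathione transferase, rose from 8.33 and 8.52 to 10.88 and 10.33 in control embryos, by 2.18 ± 0.30 (adjusted p = 0.00168), and by 2.32 in elav-dimm embryos.

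Keap1, the repressor of CncC, fell from 8.10 and 8.24 to 6.10 and 6.26 in control embryos, by 1.99 on the log2 scale (SE 0.14, adjusted p = 0.000123), and fell by 2.61 in elav-dimm embryos (adjusted p = 4.1e-05). The gene of CncC itself, cnc, was called higher, but it had 1 value on all 4 arrays of each stage (9.53 and 10.18), without array noise. It was the 1 regulator counted as higher in each genotype, so no other regulator was called higher. Prx6a, a peroxiredoxin gene called higher in both genotypes, likewise had 1 value (7.35) on all 4 stage 14 arrays and is 1 of the redox partners counted. The peroxiredoxin gene Prx3 rose in both genotypes (0.98 in control and 1.07 in elav-dimm embryos), as did Trx2 (0.48 and 0.45). Trxr1 (0.69, adjusted p = 0.034) and Grx1 (0.43), which reduce thioredoxin and disulphides, were called in elav-dimm embryos, with 0.49 (adjusted p = 0.0978) and 0.25 (0.0515) in control embryos. Hsf, the heat shock factor, fell in both genotypes (-0.84 and -0.91), and ss (-0.78, adjusted p = 0.0472) and tgo (-0.83, adjusted p = 0.0131), which encode partner bHLH-PAS proteins, fell in elav-dimm embryos, with -0.57 (0.113) and -0.53 (0.0583) in control embryos. No difference between the genotypes in these stage changes was called. In elav-dimm embryos 2 of 5, 1 of 3, 5 of 8 and 1 of 8 genes of the 4 lists rose and 1, 0, 0 and 4 fell, beside 20.7% higher and 42.8% lower over all.

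Markers of the tissues that could supply these transcripts also moved with stage. The log2 summed signal of 3 muscle markers was 12.11 to 12.24 in stage 14 control and 13.68 to 14.42 in stage 16 control embryos, and 11.86 to 12.00 and then 13.62 to 14.20 in elav-dimm embryos, and 3 of 3 were called higher with age in each genotype. The 5 Malpighian tubule markers summed to 8.75 to 8.76 and then 10.58 to 10.70 in control, and to 8.77 to 8.93 and then 10.70 to 10.83 in elav-dimm embryos. That sum rose with ZnT35C (2.44 in control), while Best2 changed by 0.05 and Irk2, NaPi-T and Alp4 stayed below 4 on every array. The 5 midgut markers summed to 11.37 to 11.42 and then 11.74 to 12.54 in control, and to 11.07 to 11.19 and then 11.68 to 12.33 in elav-dimm embryos. The 5 epidermis markers summed to 11.24 to 11.37 at stage 14 and 12.33 to 12.86 at stage 16 over both genotypes. Among them sha went the other way (-2.13 in control), called lower only with the replicate block (adjusted p = 0.00059). Of the tested markers, 1 of 2 Malpighian tubule, 1 of 3 midgut and 2 of 3 epidermis genes were called higher with age in control embryos, and 1, 2 and 2 in elav-dimm embryos. Of all tested probe sets, 21.8% and 20.7% were called higher. The 2 tested haemocyte markers went both ways in control embryos, with Pxn called higher (0.64) and Sr-CI lower (-2.68). Glial markers went down, with 4 of 5 called lower with age in each genotype, beside 39% and 42.8% of all tested probe sets. Among 3 tested neuron markers in control embryos, nSyb was called higher (4.20, from dim stage 14 signals) and elav lower (-0.65). The part of these tissues in the rise of the Theta, Omega, Sigma and Epsilon genes was not tested.

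Fat body markers, of a tissue with high detoxification activity, summed to 14.76 to 14.81 at stage 14 and to 14.83 to 15.06 at stage 16 over both genotypes, and 0 of 3 tested were called with age. Between genotypes the neuron markers summed to 13.59 to 13.64 in control and 13.68 to 13.73 in elav-dimm embryos at stage 14, and to 12.87 to 13.46 and 12.91 to 13.46 at stage 16. Of 5 glial markers, 1 was called lower in elav-dimm embryos, repo (-0.78 ± 0.08, adjusted p = 0.0256), and the list summed to 14.61 to 14.64 against 14.47 to 14.58 at stage 14 and 13.58 to 14.11 against 13.42 to 13.91 at stage 16. The epidermal cuticle gene Cpr49Ac was called higher in elav-dimm embryos (0.66 ± 0.09, adjusted p = 0.0441), 1 of 3 tested epidermis markers. Over all tested probe sets, 0.533% were called lower and 0.969% higher in this average contrast. With the replicate block the glial gene moody (-0.33, adjusted p = 0.0398), the muscle gene Mlc2 (-0.57, 0.0172) and the midgut gene mex1 (-0.42, 0.0284) were also called lower. That fit called 7.74% of all tested probe sets. The other tested markers of these lists were not called: up (0.23) and sls (0.07) of muscle, GATAe (0.01) and CG13492 (-0.09) of midgut, and gcm (-0.02), Gli (0.07) and nrv2 (-0.18) of glia. The part of these differences in the GstE1 and GstD5 effects was not tested.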

How the data were processed

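The deposited table holds log2 signals of 8 arrays, which the authors made with GCRMA 2.22.0 in R 2.12.1, per the submitters' processing notes, with limma named without a version. GCRMA corrects background by probe sequence, normalises the arrays to 1 distribution and summarises each probe set, so dim genes are drawn to a shared lowest value and dim fold changes are uncertain. Of 18952 probe sets, 183 control probe sets were left out. limma 3.58.1 in R 4.3.3 fitted 4 group means to the 8258 probe sets above 4 on at least 2 arrays (4 residual and 1.45 prior degrees of freedom), with Benjamini-Hochberg adjustment over all of them and a threshold of 0.05. The procedure was tested on simulated data. Errors are standard errors of the fit. Contrasts were the genotype effect on average and at each stage, its difference between stages, and the stage change in each genotype. Contrasts that share groups are not independent.

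Probe sets were named from the platform annotation, and all 34 genes were found in RefSeq's table of Release 6 plus ISO1 MT, which gave the gene order. No coordinates are given because the array data state no genome build. Promoter and protein sequences were not used here. Members, lists and alternatives were chosen with earlier results of these data known. Given on every array were members past the threshold in any contrast and, in each class, the tested gene with the largest average genotype effect; list genes past the threshold in any contrast were named. GstT4 and MRP, and the members called with the block or separate at both stages, were added after their values were seen.

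The labels number the arrays alike in each group. Differences between replicate 1 and 2 correlated across probe sets at 0.155 between the genotypes at stage 14, at 0.906 at stage 16, and at -0.0241 to 0.134 across stages, so the number within a stage was used as a block in an alternative fit.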

Additional observations from a re-analysis of the deposited data

How the results depend on the processing

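Over the named GST results and the alternatives run, 764 values kept their direction and side of the threshold, 29 passed it only under the alternative, 63 missed it, and none reversed. The numbers of GST probe sets called were 2 on average, 2 at stage 14, 1 at stage 16, 0 for the difference between stages, and 17 and 16 for the stage change in control and elav-dimm embryos. With the replicate block the average count was 5 (639 of all probe sets, beside 124 without it). The stage change counts were 19 and 19 of 23, near the share over all 8258 probe sets (6811 and 6900, beside 5023 and 5245 without the block). The block gave 157 of all probe sets at stage 14 and 219 at stage 16, beside 28 and 30 without it. Requiring a signal above 4 on all 8 arrays gave 1 on average (91 of all 6859 probe sets) and 1 at stage 14 (14 of all). With stage it gave 11 and 10 (3775 and 4017 of all), since fewer probe sets were tested. No filter gave 1, 1 and 0 for the 3 genotype contrasts, where 44, 20 and 4 of all 18769 probe sets were called. Of these GST calls 0 were higher, so GstD5 was not called on average or at stage 14, nor GstE1 at stage 16. With stage, no filter gave 28 and 28 of 36. There 14601 and 14766 of all 18769 probe sets were called because the lowest value differs between stages without spread. Array weights gave 1 on average, 6 at stage 14 (734 of all) and 0 at stage 16, and the cause was not tested. Stage 16 arrays alone gave 0 at stage 16 (GstE1 adjusted p = 0.976), while stage 14 arrays alone gave 3 at stage 14 (74 of all), and the cause was not tested. Raising signals below 4 to 4 gave 1 for the difference (GstD5), with every GstD5 array outside stage 14 elav-dimm then at 4 without spread. Leaving out both replicate 1 arrays of stage 16 left 1 array in each stage 16 group, so its counts are not set beside these. Leaving out 1 array at a time gave 0 to 2 on average, 0 to 2 at stage 14, 0 to 0 at stage 16 and for the difference, and 14 to 18 and 14 to 17 with stage. Of all called probe sets, 85.7% were higher at stage 14 and 73.3% after centring on the array median; for stage 16 these shares were 60% and 73.1%. With 2 arrays a group the precision is limited, and a probe set near the lowest value can hide a change.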
